A study of Bubalus bubalis with 3 samples.

Results

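The miR-193 and miR-365 miRNAs were examined in small RNA libraries of fat from Chinese swamp buffalo (Bubalus bubalis), a water buffalo kept for draught and meat. They were taken by name from the deposited table as bta-miR-193b, bta-miR-193a-3p, bta-miR-193a-5p, bta-miR-365-3p and bta-miR-365-5p (bta stands for the bovine annotation and is left out below), which are 5 of its 622 names. The samples analysed here form 1 group of 3 libraries from calves aged 6 months, with no treatment named, so no contrast between conditions could be made, and the libraries are called 1, 2 and 3 by their title numbers. The animals were sampled at a slaughterhouse. The labels name adipose tissue without its depot, and do not say whether each sample came from its own animal, so the spread between libraries may be technical. Values are TPM as deposited, here a share of the reads assigned to all listed names. From the smallest steps between values, depth was estimated at 6860000, 6770000 and 5480000 reads for libraries 1, 2 and 3.

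In mammals these miRNAs are encoded in a pair of small clusters. miR-193b lies beside one copy of the miR-365 gene, and miR-193a lies beside another copy on a different chromosome. Both copies of the miR-365 gene give the same 3p arm, so reads of miR-365-3p do not tell which cluster they came from. miR-193a-3p and miR-193b share the seed, the stretch near the 5′ end that pairs with target mRNAs, and they repress common targets such as the anti-apoptotic gene MCL1 in human cells. In mice the miR-193b and miR-365 cluster is more abundant in brown than in white fat. There it was needed for brown adipocyte differentiation in cultured precursors, where it represses genes of the muscle programme, whereas mice without the cluster still form brown fat. Brown fat burns lipid for heat in newborn and young mammals, and in many depots of ruminants it gives way to white fat after birth.

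A bulk library holds every cell of the tissue, and fewer cells of a type cannot be told apart from less RNA per cell. The 7 striated muscle miRNAs used as markers summed to between 9.9 and 36.2 TPM, and the 6 epithelial markers to between 7.1 and 16.1 TPM, while miR-122 of hepatocytes reached at most 0.6 TPM. The 3 red blood cell markers summed to between 2558 and 6182 TPM, the 5 white blood cell markers to between 190.0 and 914.4 TPM, and the 3 vessel wall markers to between 166758 and 280212 TPM. The part of these cells in the levels below was not tested. UCP1, the defining gene of brown fat, is read as an mRNA and was not measured by these small RNA libraries, so the kind of fat was not checked.

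All 5 miRNAs were detected in all 3 libraries, and miR-193b was by far the most abundant. miR-193b had 603.9, 330.6 and 827.2 TPM in libraries 1, 2 and 3, or 587 ± 249 TPM (SD, n = 3). This placed it at rank 50 of the 622 names by mean TPM. miR-365-3p, the main arm of its cluster neighbour, had 156.9, 86.3 and 227.2 TPM, with a mean of 157 ± 70.5 TPM and rank 85. miR-193a-3p, which shares the seed of miR-193b, had 89.2, 41.4 and 95 TPM, with a mean of 75.2 ± 29.4 TPM and rank 102. Each of these 3 was lowest in library 2 and highest in library 3.

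The remaining arms were rarer. miR-193a-5p, cut from the same hairpin as miR-193a-3p, had 28.8, 17.1 and 43.4 TPM, with a mean of 29.8 ± 13.2 TPM and rank 140. miR-365-5p, the minor arm of the miR-365 hairpin, had 0.7, 0.4 and 3.1 TPM, with a mean of 1.40 ± 1.48 TPM and rank 285. These TPM of miR-365-5p stand for about 5, 3 and 17 reads. Its 95% exact Poisson interval, which covers counting error only, was 1.81 to 4.96 TPM in library 3, above the interval of 0.237 to 1.70 TPM in library 1 and that of 0.0914 to 1.30 TPM in library 2. Its mean rested on library 3 and was 0.550 TPM without it. Thus 4 of the 5 members averaged 10 TPM or more, as did 159 of the 396 known bovine names (40.2%).

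**Figure D1:**
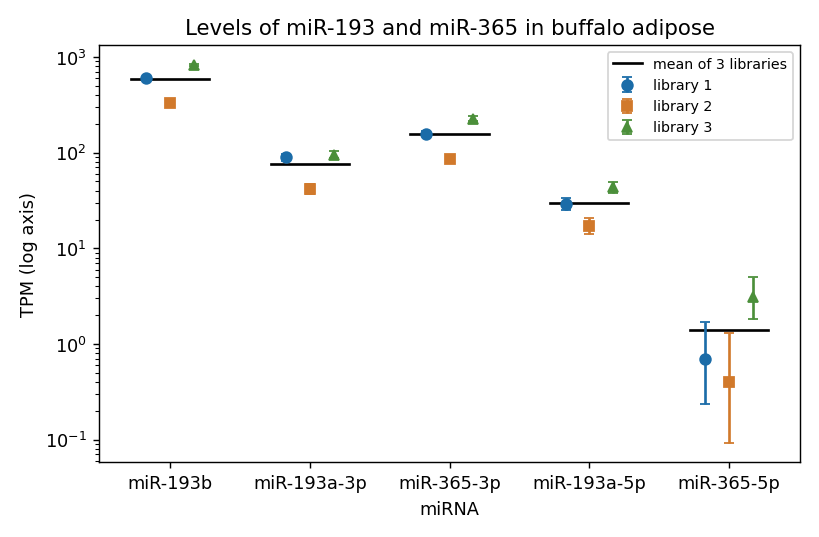
TPM of each miRNA (log axis) in library 1 (circle), library 2 (square) and library 3 (triangle), with a black line at the mean of the 3 libraries. Whiskers are 95% exact Poisson intervals on estimated reads. miR-193b lies between 330.6 and 827.2 TPM, above every value of the other 4 miRNAs, and each miRNA is lowest in library 2 and highest in library 3.

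Neighbours in abundance were the known names next above and next below each member by mean TPM in these libraries. Small mean differences from them therefore follow from the choice. miR-193b stood between miR-27a-3p, an inhibitor of adipocyte differentiation, and miR-23a, which is encoded beside miR-27a. It exceeded miR-27a-3p in 1 of 3 libraries, with a within-library difference of -0.04 ± 0.60 on the log2(TPM + 1) scale (member minus neighbour, mean ± SD, n = 3), and exceeded miR-23a in 1 of 3 as well (-0.03 ± 0.53). Around miR-365-3p stood miR-29c, which represses collagen genes (-0.11 ± 0.12), and miR-361 (0.05 ± 0.48). Around miR-193a-3p stood the imprinted miR-410 (0.19 ± 0.80) and miR-106b (0.04 ± 0.23), around miR-193a-5p miR-29b (-0.06 ± 0.29) and miR-331-3p (0.25 ± 0.41), and around miR-365-5p miR-363 (-0.12 ± 0.88) and miR-3601 (0.02 ± 1.23). None of these 10 neighbours lay on one side of its member in all 3 libraries, which a choice by close means favours.

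The share of miR-193b among the members was nearly the same in every library, and those of the rarer miR-193a-3p and miR-365-5p varied more. Together they held 879.5, 475.8 and 1195.9 TPM in libraries 1, 2 and 3, or 0.0880%, 0.0476% and 0.120% of all TPM. miR-193b made up 68.7% of this sum in library 1 (Wilson 95% interval of the reads 67.5% to 69.8%), 69.5% in library 2 (67.9% to 71.0%) and 69.2% in library 3 (68.0% to 70.3%). These intervals overlap. miR-365-3p made up 17.8%, 18.1% and 19.0%, and miR-193a-5p 3.27%, 3.59% and 3.63%. The share of miR-193a-3p was 10.1% in library 1 (9.40% to 10.9%) and 7.94% in library 3 (7.31% to 8.62%), intervals that do not overlap, with 8.70% in library 2. miR-365-5p, at few reads, made up 0.0796% in library 1 (0.0354% to 0.194%), 0.0841% in library 2 (0.0317% to 0.273%) and 0.259% in library 3 (0.162% to 0.415%), intervals that overlap.

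miR-193b and its cluster neighbour miR-365-3p differed by a nearly fixed factor. The ratio of miR-193b to miR-365-3p was 3.85, 3.83 and 3.64 in libraries 1, 2 and 3, a within-library difference of 1.91 ± 0.04 on the log2(TPM + 1) scale. Over all 12561 pairs of the 159 known names that averaged 10 TPM or more, the median SD of such a difference was 0.50. The ratio of miR-193b to miR-193a-3p, its seed relative from the other cluster, was 6.77, 7.99 and 8.71 (2.94 ± 0.18 on that scale). The ratio of miR-365-3p to miR-193a-3p was 1.76, 2.08 and 2.39 (1.03 ± 0.22). miR-193b and miR-193a-3p are close in sequence, and how reads that fit both were assigned was not given. The first of each pair was higher in 3 of 3 libraries, so the order miR-193b, miR-365-3p, miR-193a-3p held in every library. The smallest p that an exact permutation test (two-sided, flipping the signs of 3 differences) can give is 0.25, and each of these 3 pairs had this p, raw and adjusted over the pairs. miRNAs also differ in how well their ends take adaptors during library preparation, and the part of this in differences between names was not tested.

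Within the hairpins, both miR-193a and miR-365 had more of the 3p arm. Since both copies of the miR-365 gene give the 3p arm, its reads pool 2 hairpins, and the values of miR-365 compare the listed names, not the arms of a single hairpin. For miR-365 the 5p arm had 1.40 ± 1.48 TPM and the 3p arm 157 ± 70.5 TPM (SD, n = 3), a difference of 5p minus 3p of -6.10 ± 0.39 on the log2(TPM + 1) scale. It was -6.54, -5.96 and -5.80 in libraries 1, 2 and 3. For miR-193a the 5p arm had 29.8 ± 13.2 TPM and the 3p arm 75.2 ± 29.4 TPM, a difference of -1.31 ± 0.25, with -1.60, -1.23 and -1.11 in the 3 libraries. The sign was the same in 3 of 3 libraries for both. Differences were tested with limma over the 20 hairpins with both arms listed and the more abundant arm at 10 TPM or more on average, and an adjusted p below 0.05 was called. The adjusted p was 2.07e-22 for miR-365 and 7.81e-05 for miR-193a. These small values lean on a spread pooled over hairpins that vary unequally. Of the 20 hairpins, 6 (30.0%) were called for more 3p, among them miR-193a and miR-365, 11 (55.0%) were called for more 5p, and 17 (85.0%) were called in either direction, so a called difference was common.

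With a pseudocount of 1, miR-365 had the lowest difference of the 20. Next was miR-27a (-5.93 ± 0.60), whose 5p arm had 8.43 and whose 3p arm had 592 TPM. miR-193a held place 6, between miR-199a of stromal fibroblasts (-2.40 ± 0.25) and miR-423 (-0.21 ± 0.14, limma adjusted p = 0.487, not called). Because miR-365-5p was near the worth of single reads, the size of the miR-365 difference depends on the pseudocount. Its place among the hairpins depends on the pseudocount too. With a pseudocount of 10 the difference of miR-365 was -3.78 and with 0.1 it was -7.07, and both were called.

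Counted as estimated reads, miR-365-5p held 0.462% of the reads of both miR-365 names in library 1 (exact 95% interval 0.150% to 1.08%), 0.511% in library 2 (0.106% to 1.49%) and 1.35% in library 3 (0.786% to 2.15%). These intervals overlap. The 5p share of the miR-193a hairpin was 24.4% in library 1 (21.5% to 27.6%), 29.3% in library 2 (24.9% to 34.0%) and 31.4% in library 3 (28.1% to 34.8%). Here the intervals of libraries 1 and 3 do not overlap. The 5p arm stood highest against its 3p arm in library 3 for both hairpins, as it did for 9 of the 20 hairpins, and lowest in library 1. Among the 6 hairpins called for more 3p, the 5p arm was lowest against 3p in library 1 for 5, miR-193a and miR-365 included. Among the 11 called for more 5p this held for 0. The reason was not tested.

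**Figure D2:**
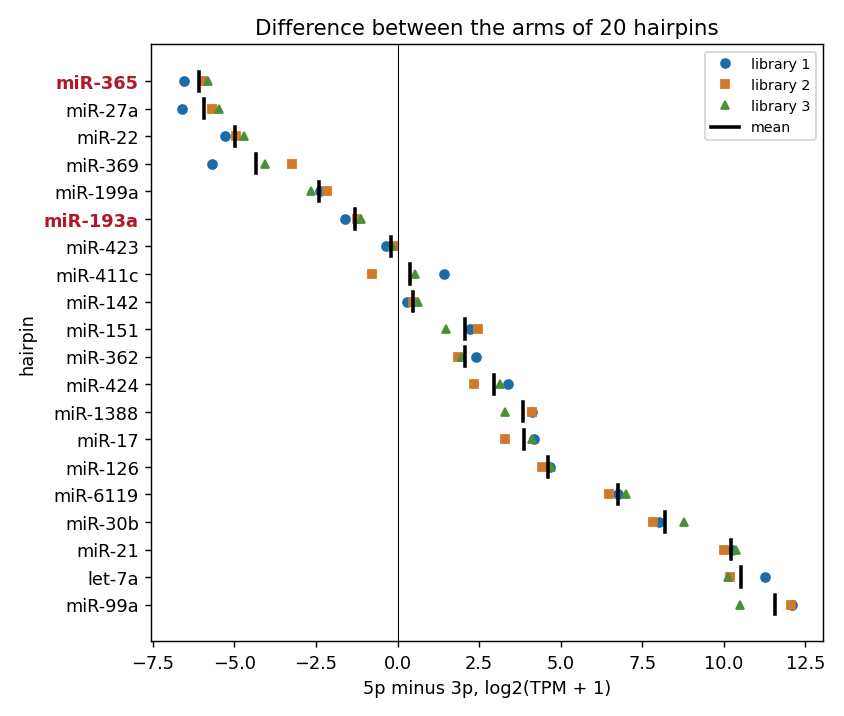
Difference of log2(TPM + 1) between the 5p and the 3p arm (horizontal axis) for each of the 20 hairpins (rows), with 1 symbol per library and a black tick at the mean. With this pseudocount miR-365, at -6.10, is the lowest of all, and miR-193a, at -1.31, holds place 6. Both names are in red.

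The members shared their highest and their lowest library. All 5 were highest in library 3 and lowest in library 2. The Poisson intervals of miR-193a-3p in libraries 1 and 3 overlapped, however (82.2 to 96.5 and 87.0 to 103.5 TPM). Those of miR-365-5p in libraries 1 and 2 overlapped too. Of the 159 known names that averaged 10 TPM or more, 146 (91.8%) were also lowest in library 2, but 40 (25.2%) were highest in library 3 and 112 were highest in library 1. miR-10b, the most abundant miRNA, held 26.5%, 48.8% and 40.4% of TPM in libraries 1, 2 and 3. With miR-10b taken out of the totals, miR-193b had 822, 646 and 1388 TPM and was still lowest in library 2 and highest in library 3, as were the other 4 members. The members share libraries, and several share a hairpin or cluster, so they are not independent cases.

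Division by size factors, the median ratio of a library to the mean library over names averaging 10 TPM or more (1.39, 0.609 and 1.16), changed which library was lowest and kept which was highest. miR-193b then had 435.1, 543.2 and 715.0 TPM in libraries 1, 2 and 3. miR-365-3p had 113, 142 and 196 TPM, and miR-193a-5p had 20.7, 28.1 and 37.5 TPM. miR-193a-3p was flatter, with 64.3, 68.0 and 82.1 TPM. After size factors all 5 members were highest in library 3, where 52 of the 159 known names (32.7%) were highest, and all 5 were lowest in library 1, against 56 of the 159. Counting intervals were not computed on this scale, and miR-365-5p rested on about 5 reads in library 1 and 3 in library 2. The choice of scale thus decides whether library 1 or library 2 holds the lowest values.

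**Figure D3:**
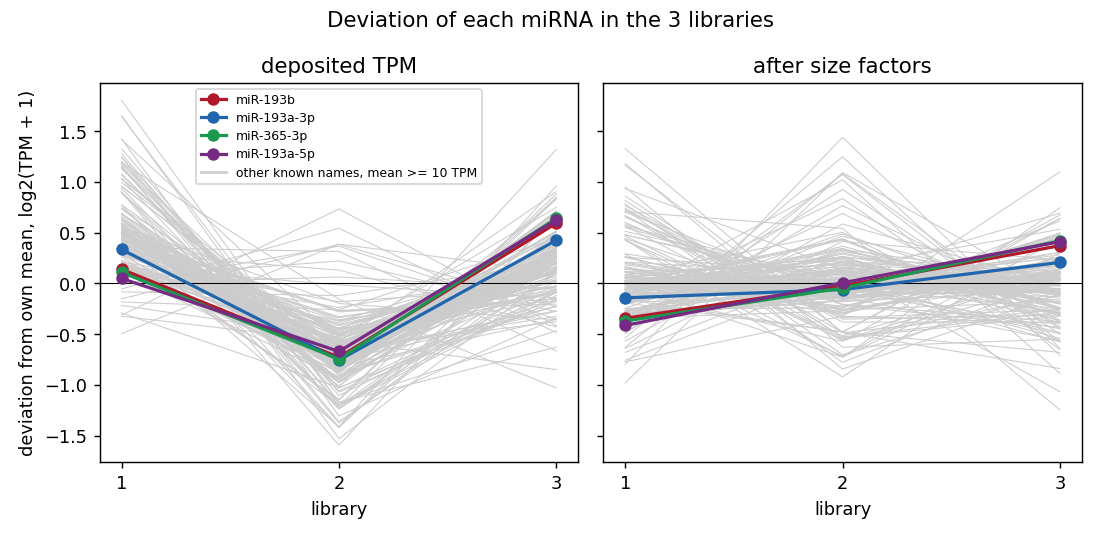
Deviation of log2(TPM + 1) from the mean of each miRNA (vertical axis) in libraries 1, 2 and 3 (horizontal axis; the libraries have no order and lines join values of 1 miRNA), for deposited TPM (left) and after size factors (right). Grey lines are the other known names that averaged 10 TPM or more. On the left the 4 coloured members lie at 0.05 to 0.33 in library 1, -0.76 to -0.67 in library 2 and 0.42 to 0.64 in library 3. On the right they lie at -0.41 to -0.14 in library 1 and 0.21 to 0.42 in library 3. miR-193a-3p lies above the other members in library 1 in both panels.

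The size of the spread was that of other miRNAs as deposited. The SD of log2(TPM + 1) was 0.67 for miR-193b, 0.70 for miR-365-3p, 0.66 for miR-193a-3p and 0.65 for miR-193a-5p, beside a median of 0.66 over the 166 names that averaged 10 TPM or more. After size factors it was 0.36 for miR-193b, 0.40 for miR-365-3p, 0.41 for miR-193a-5p and 0.18 for miR-193a-3p, beside a median of 0.29. miR-193a-3p was thus below that median and the other 3 above it, though all 4 lay within the quartiles of these names, 0.16 and 0.57. Library 2 carried much of the deposited spread: without it the SD was 0.32 for miR-193b, 0.38 for miR-365-3p, 0.41 for miR-193a-5p and 0.064 for miR-193a-3p.

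The miRNAs whose pattern was most like each member were found by the largest difference, over the 3 libraries, between deviations of log2(TPM + 1) from the own mean, among 158 other known names. Nearest to miR-193b was miR-708 (390.1, 205.2 and 528.4 TPM; distance 0.03), followed by miR-3432a (0.04), miR-365-3p (0.05), miR-30f (0.07) and miR-22-5p (0.08), beside a median distance of 0.48. Nearest to miR-365-3p were miR-30f (242.7, 130.1 and 355.2 TPM; 0.03), miR-3432a (0.03), miR-193b (0.05), miR-708 (0.05) and miR-374b (0.06). The cluster neighbours were thus at place 3 in the list of each other, and at place 2 after size factors. Nearest to miR-193a-5p were miR-6529a (46.3, 28.4 and 68.2 TPM; 0.03), miR-365-3p (0.08), miR-193b (0.09), miR-3432a (0.09) and miR-30f (0.11). miR-3432a, a low name at 13.8, 6.9 and 19.7 TPM, fell after size factors to place 9 for miR-193b, 6 for miR-365-3p and 7 for miR-193a-5p. Counting error was not carried into these distances.

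miR-193a-3p had other near names than the rest of the members. They were miR-339b (40.1, 18 and 41 TPM; distance 0.03), miR-339a (0.04), miR-197 (0.04), miR-3600 (0.07) and miR-151-3p (0.09). miR-193b stood at place 30 in that list, miR-365-3p at place 39 and miR-193a-5p, the other arm of its own hairpin, at place 56. With 3 libraries these places are descriptions.

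The members were last set beside other miRNAs with published roles in brown or beige fat. Of 15 names planned as favouring it, 14 are described here (miR-203 was not analysed here) and 10 averaged 10 TPM or more. Without the 3 members this was 7 of 11, beside 159 of 396 known names (40.2%). The median of mean TPM was 116 over the 14 names and 4.82 over all known names. miR-193b held place 4 in this list, after miR-26a, which promotes differentiation of human fat cell progenitors (116587, 103631 and 70353 TPM), miR-26b, its family member (3537, 1657 and 3298 TPM), and miR-378, which is encoded in the gene of the coactivator PGC-1β (2824, 1158 and 2533 TPM). Below miR-193b came miR-30b-5p (519.2, 249.5 and 739.9 TPM) and miR-30c (413, 189.1 and 321.4 TPM), which repress the corepressor RIP140 in mouse fat cells.

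miRNAs close to or below miR-193a-3p in this list included some with direct roles in mouse brown fat. miR-32 had 85.8, 26.1 and 59.1 TPM, and miR-196a, which represses Hoxc8 in mouse white fat precursors, had 72, 12 and 62.7 TPM. Lower still stood miR-328 (7, 3.2 and 14.8 TPM), miR-455-3p (8.6, 3.8 and 8.9 TPM), miR-182 (2.3, 0.6 and 3.6 TPM) and miR-129-5p (0.9, 0.3 and 0.2 TPM). The level of miR-193b thus did not go with a high level of every miRNA on the list.

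Of 10 names planned as opposing brown or beige fat all were listed and 7 averaged 10 TPM or more, beside 159 of 396 known names (40.2%). Their median of mean TPM was 210, against 116 for the 14 favouring names and 4.82 for all known names. A level above that of all known names was thus not particular to the favouring list. They were led by miR-27b, which represses the brown fat regulator PRDM16 in mouse cells (30289, 15039 and 21758 TPM), let-7i (5222, 1794 and 5032 TPM) and miR-125b (2437, 1224 and 1568 TPM). miR-27a-3p, of the same family as miR-27b, had 840.5, 404 and 531.7 TPM, close to miR-193b. miR-93 (450.7, 175.5 and 407.7 TPM) and miR-106b (103.7, 37.8 and 82 TPM), from one cluster, lay in the range of the members, as did miR-155, an inhibitor of C/EBPβ (106.8, 33.7 and 45.2 TPM). miR-34a (12.7, 5.5 and 10.8 TPM) and the muscle miRNAs miR-133a (15.4, 1.3 and 10.4 TPM) and miR-133b (2.8, 0.1 and 2.7 TPM), which repress PRDM16 too, were at or below 10 TPM on average.

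Which library was highest was counted in both lists. Among names that averaged 10 TPM or more as deposited, the 3 members and 1 of the 7 other favouring names were highest in library 3, as were 0 of the 7 opposing names and 25.2% of all such known names. All 7 opposing names were highest in library 1, as were 70.4% of all such known names. The 5 white blood cell markers, of which miR-155 is also an opposing name, summed to 914.4 TPM in library 1, 190.0 TPM in library 2 and 296.5 TPM in library 3. The sums of the red blood cell, striated muscle and vessel wall markers and miR-122 were highest in library 1 too. Of the vessel wall markers, miR-143 and miR-126-5p were highest in library 1, but miR-145 was highest in library 3 (978.6, 473.7 and 1431.8 TPM). The sum of the epithelial markers was highest in library 3, though miR-141 among them was highest in library 1. These marker sums are as deposited and were not divided by size factors. The part of these cells in the counts was not tested. After size factors the 3 members, 4 of the 7 other favouring names and 2 of the 7 opposing names were highest in library 3, beside 32.7% of all such known names, so the counts for the other names depended on the scale. Whether the lists differ was not tested.

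**Figure D4:**
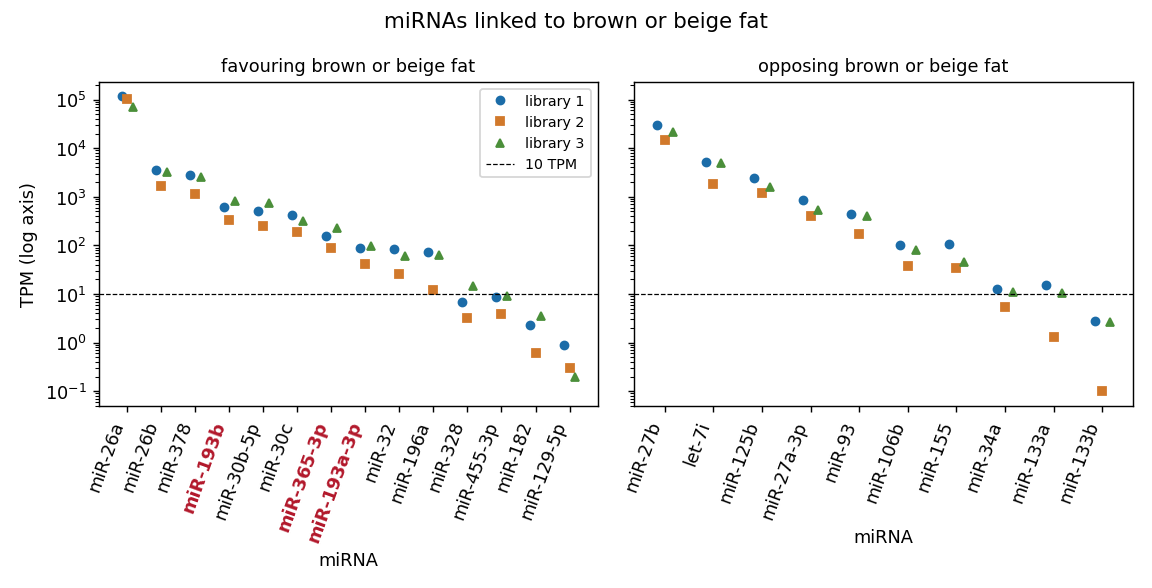
TPM (log axis) of listed miRNAs that favour (left) or oppose (right) brown or beige fat, in order of mean level, with 1 symbol per library and a dashed line at 10 TPM. miR-193b, miR-365-3p and miR-193a-3p (red) stand among the 8 highest of 14 on the left, and each is highest in library 3 (triangle). Library 1 (circle) is highest for 7 of the 14 names on the left and all 10 on the right. It is also highest for 70.4% of the known names that averaged 10 TPM or more. After size factors (not shown) the 10 names on the right were highest in libraries 1, 2 and 3 in 3, 3 and 4 cases.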

How the data were processed

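Small RNA from 3 adipose samples was sequenced on a HiSeq instrument after TruSeq adaptor ligation and gel size selection, per the labels' protocols. These also mention that ribosomal RNA was depleted. Per the submitters' processing notes Bowtie and the bovine build UMD3.1 are named, with neither step nor version. How reads were counted, by which annotation, and where a read matched more than 1 miRNA, was not given in the sources used here. Per the file headers, values are TPM; the authors gave them with 1 decimal. All 3 value columns were mapped by name, and 0 were left unmapped.

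The members and lists were chosen with earlier results of these data known. Reads were estimated from the step on which values up to 25 TPM lie (0.146, 0.148 and 0.182 TPM), which held for 100% of low values in each library within the rounding of 0.1 TPM, against 68.6%, 67.7% and 54.8% at random. On 20 simulated tables, with depths drawn from a range around the estimated ones, the step was off by at most 0.121%. Depths at which the rounding leaves the step ambiguous were kept out of this range. Because rounding is coarse no count model was fitted. Intervals cover counting error only, since PCR copies of 1 molecule cannot be recognised. Analyses used log2(TPM + 1), on which differences of low miRNAs are understated. Arm differences were fitted with limma 3.58.1 (R 4.3.3; intercept, Benjamini-Hochberg), checked on simulated data. Named are the members, the lists, the names next to a member by mean TPM, the 5 nearest in pattern, and hairpins next in arm difference. Alternatives were each library left out, pseudocounts of 0.1 and 10, other minimum means, size factors and removal of miR-10b.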

Additional observations from a re-analysis of the deposited data

How the results depend on the processing

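In all, 111 values were recomputed under other settings. Of these, the differences between members and between arms kept their sign. The rest were levels, SDs and counts, which cannot change sign. Neither miR-193a nor miR-365 lost its arm call where it was fitted. The mean of miR-365-5p was 0.550 TPM without library 3, and the arm difference of miR-365 was -3.78 with a pseudocount of 10. Once miR-10b was removed from the totals, mean TPM was 952 for miR-193b, 121 for miR-193a-3p, 254 for miR-365-3p and 48.5 for miR-193a-5p. With a pseudocount of 10 the difference of miR-193b minus miR-365-3p was 1.84. Size factors gave an SD of 0.36 for miR-193b, 0.18 for miR-193a-3p, 0.40 for miR-365-3p and 0.41 for miR-193a-5p, and the SD of miR-365-5p was 1.39 with a pseudocount of 0.1 and 0.18 with 10. With one library left out the SD ranged over 0.32 to 0.93 for miR-193b, 0.064 to 0.83 for miR-193a-3p, 0.38 to 0.98 for miR-365-3p, 0.41 to 0.92 for miR-193a-5p and 0.20 to 1.10 for miR-365-5p, lowest without library 2 for the first 4 and without library 3 for miR-365-5p. Adjusted p of miR-193a ranged over 5.07e-05 to 0.00788 and of miR-365 up to 0.000220. With no minimum mean 33 hairpins entered and 16 were called for more 5p and 7 for more 3p, and at a minimum of 100 TPM, where miR-193a did not enter, 8 and 4 were. The causes were not tested. No contrast between conditions was possible because the samples analysed here form 1 group. Arms and members were compared within each library. Depth limits miR-365-5p, at about 25 reads over the 3 libraries.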
